A study of Arabidopsis thaliana with 12 samples.

Results

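Transcript levels of 34 genes from the named transcription factor families of Arabidopsis thaliana were examined in leaves at the end of the night. The members were the genes whose array symbol, after a leading AT was dropped, consisted of a family name followed directly by a number. They made up 34 of the 13355 genes that had a probe set of their own on the Affymetrix ATH1 array. The WRKY family contributed 6 members, bZIP 14, bHLH 5 and IAA (Aux/IAA) 7, and NAC and TCP contributed 1 each. The same rule matched 0 genes named MYB, ERF, ARF or HB. The members are therefore a part of each family, taken by a rule on their names.

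The study compared leaves of 4 genotypes, with 3 arrays for each: ptpkis2, sex4-3, sex1-3 and wild type Columbia. The ptpkis2 line is a Salk insertion line affecting PTPKIS2, also known as LSF1, a protein related to the phosphoglucan phosphatase SEX4. The sex4-3 line is a Salk insertion line affecting SEX4 itself, and sex1-3 is an induced mutation, in Columbia, of glucan, water dikinase, which phosphorylates starch. Each mutation was represented by 1 line, no treatment was applied, and all genotypes grew in 12 hours of light per day at 20 degrees Celsius. Per the labels, leaves of 8 plants of each genotype were cut under a green lamp, 0.5 hours ahead of the light period. Nothing in the labels tells apart the plants behind the 3 arrays of a genotype. The tests therefore weigh differences against the spread of the arrays, part or all of which may be technical.

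Transcription factors bind regulatory DNA and set how strongly their target genes are transcribed. WRKY factors act mainly in defence, senescence and nutrient responses, and bZIP factors in stress, light, energy and metal responses. The bHLH members here belong to the cascade that answers iron shortage. Aux/IAA proteins repress auxin response genes, many of them until auxin triggers their breakdown. Many of these proteins are controlled after transcription, by cleavage, splicing, phosphorylation or degradation, which an array of transcript levels does not record.

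The array signals had a median of 24 to 29.7 on 11 arrays and of 62.2 on wild type replicate 2. Its correlation with each of the others was 0.586 to 0.604 over all probe sets, and those among the other 11 were 0.891 to 0.93. It lay outside the range of the other 11 arrays in 10 of the 19 members bright enough to test. In WRKY22, WRKY47, bHLH115 and TCP15 it was the highest array, and in WRKY20, BZIP28, BZIP61, BZIP53, bHLH34 and IAA18 the lowest. Results are therefore given with all 12 arrays and again without wild type replicate 2. The leaf markers PRK, RCA and LHCB4.1 had signals of 1658 to 12698. Of 3 stomatal lineage markers, FAMA (6.03 to 56.2) was tested, and MUTE (up to 9.95) and SPCH (up to 13.1) were below the signal filter described next. FAMA was at 0.83 in ptpkis2 against wild type with 12 arrays and at -0.22 without wild type replicate 2, and at 0.18 in ptpkis2 against sex1-3. None of the 4 tested markers passed in any comparison with 12 arrays or without that array. Their part in the results was not tested.

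A probe set was tested when its mean log2 signal was above that of the dimmest 40%, and 13647 probe sets were. Of the 34 members, 19 passed this filter and 15 did not. The tested member closest to that limit was WRKY22, with a mean log2 signal of 4.63, and the nearest member outside it was BZIP24, with 3.54. A member was called when its adjusted p, from limma with Benjamini-Hochberg adjustment over all tested probe sets, was below 0.05. Fold changes are on the log2 scale with their standard error (SE), and n = 3 arrays per genotype unless wild type replicate 2 was left out.

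With all 12 arrays, bHLH121 and WRKY6 were the only members called in any comparison, and that was ptpkis2 against sex1-3. Both fell in ptpkis2 relative to sex1-3 with all 12 arrays. bHLH121 (AT3G19860), also called URI, acts near the top of the iron shortage cascade. WRKY6 (AT1G62300) is known from leaf senescence and defence and as a repressor of the phosphate exporter gene PHO1. These were 2 of 19 tested members (10.5%), near the 9.46% of all tested probe sets called in that comparison. Of all tested probe sets, 4.18% were called lower. Leaves are mixed tissue, so fewer cells of a type and less RNA per cell cannot be told apart in this or any later value.

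bHLH121 had signals of 136, 188 and 155 in ptpkis2, of 271, 263 and 242 in sex4-3, of 387, 413 and 372 in sex1-3, and of 293, 206 and 249 in wild type. The ptpkis2 arrays lay below every other array, the sex1-3 arrays lay above every other array, and sex4-3 and wild type overlapped between them. The means were 160 ± 26.6 in ptpkis2, 259 ± 15.1 in sex4-3, 391 ± 20.9 in sex1-3 and 249 ± 43.6 in wild type (SD, n = 3). The transcript was 2.47-fold lower in ptpkis2 than in sex1-3 (log2 -1.30 ± 0.18, limma adjusted p = 0.00101). It was called in 26 of 27 alternative settings, over which the adjusted p ranged up to 0.0546.

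Against wild type, bHLH121 was at -0.64 ± 0.18 in ptpkis2 (limma adjusted p = 0.218), at 0.07 ± 0.18 in sex4-3 (adjusted p = 0.851) and at 0.66 ± 0.18 in sex1-3 (adjusted p = 0.0775). It passed in ptpkis2 when wild type replicate 2 was left out (-0.77 ± 0.16, adjusted p = 0.0204, 0.0033 to 0.743 over all alternatives). In sex1-3 its value was then 0.53 ± 0.16, with an adjusted p of 0.0546 (0.0181 to 0.434 over all alternatives). The direct comparison of ptpkis2 with sex4-3 gave -0.71 ± 0.18 with all arrays (adjusted p = 0.357). The same difference passed without wild type replicate 2 (adjusted p = 0.0254, 0.00176 to 1 over all alternatives). Without that array, sex4-3 against sex1-3 gave -0.60 ± 0.14 (adjusted p = 0.0137, 0.00454 to 0.68 over all alternatives). Both ptpkis2 and sex1-3 therefore differed from sex4-3 in that fit, whose spread is shared by the 4 genotypes. In limma fits of the 6 arrays of each pair alone, sex4-3 against sex1-3 passed (adjusted p = 0.0225). There ptpkis2 against sex4-3 did not (adjusted p = 0.0512).

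WRKY6 had signals of 31.6, 14 and 11.3 in ptpkis2, of 21.5, 24 and 38.4 in sex4-3, of 64, 59.9 and 62.7 in sex1-3, and of 18.7, 14 and 37.1 in wild type. The sex1-3 arrays lay close together and above the other 9, while the other genotypes overlapped and spread more widely. The transcript was 3.64-fold lower in ptpkis2 than in sex1-3 (-1.86 ± 0.47, limma adjusted p = 0.0274). It was called in 19 of 26 alternatives, with adjusted p from 0.000398 to 0.119. Against wild type WRKY6 was at 1.54 ± 0.47 in sex1-3 (adjusted p = 0.108) and at -0.32 ± 0.47 in ptpkis2 (adjusted p = 0.721), and neither passed. The sex1-3 value was called in 2 of 26 alternatives, with array weights and without wild type replicate 3 (adjusted p from 0.0219 to 0.398 over all alternatives).

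**Figure D1:**
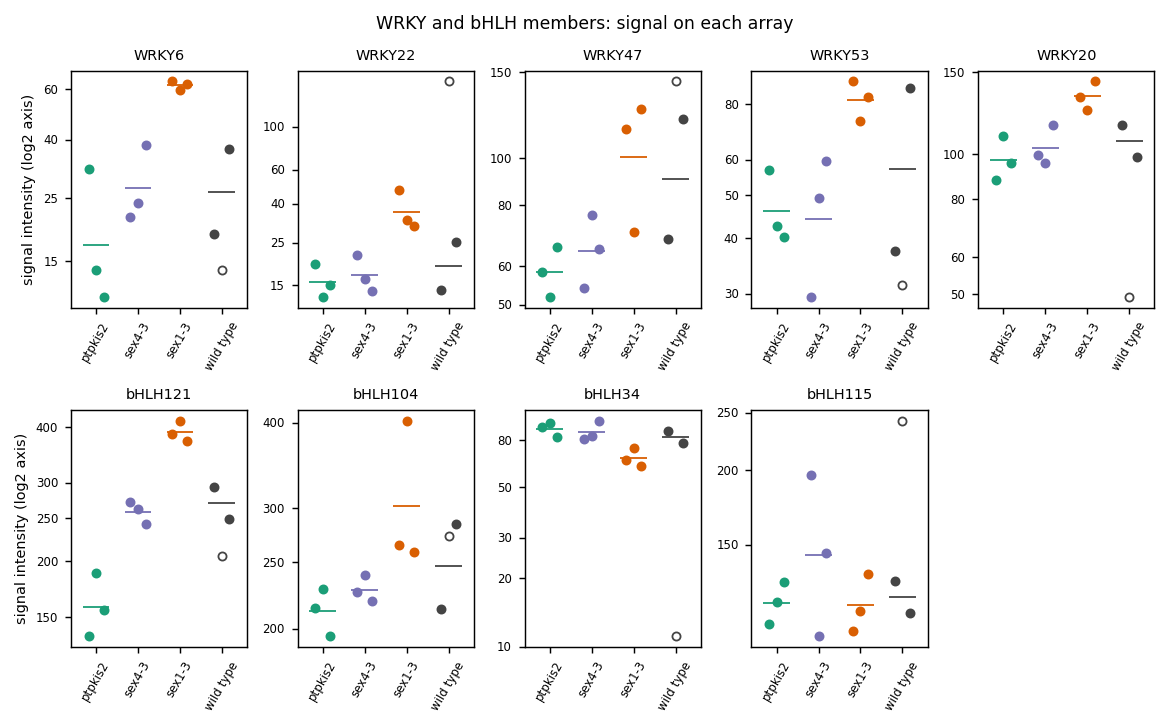
Signal intensity (log2 axis) of the 5 tested WRKY and 4 tested bHLH members on each array, by genotype; the open circle is wild type replicate 2 and each bar is the geometric mean without it. In WRKY6, WRKY20 and bHLH121 the 3 sex1-3 arrays lie above all other arrays, and in bHLH34 the open circle lies at 11.1 below all others.

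The other bHLH members did not follow bHLH121 as a group. bHLH34, bHLH104 and bHLH115, relatives that are known to pair with bHLH121 and switch on genes of iron uptake, had ptpkis2 minus sex1-3 values of 0.42 ± 0.60, -0.51 ± 0.20 and 0.01 ± 0.29. With all 12 arrays none of them passed. bHLH104 (AT4G14410) had 214, 229 and 195 in ptpkis2, 226, 239 and 220 in sex4-3, 265, 403 and 259 in sex1-3, and 214, 273 and 284 in wild type. Its ptpkis2 and sex1-3 arrays did not overlap, and the difference passed without wild type replicate 2 (adjusted p = 0.0422). bHLH34 ran the other way, at 91.8, 95.6 and 82.6 in ptpkis2 against 65.4, 74.2 and 61.8 in sex1-3, with no overlap, but its adjusted p was 0.055 without wild type replicate 2. bHLH115 overlapped between all genotypes, and the sign of its difference turned under quantile normalization and under median centring.

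Of the WRKY members bright enough to test, 1 fell in ptpkis2 relative to sex1-3 with 12 arrays and the others had values in the same direction. All 5 tested members had values below 0, from -0.45 to -1.86 with a median of -0.83, and in all 5 the ptpkis2 arrays lay below the sex1-3 arrays. Over all tested probe sets, 19.2% had every ptpkis2 array below every sex1-3 array, and the median difference was 0.08. All 5 values stayed below 0 under quantile normalization. Median centring lowered every ptpkis2 minus sex1-3 value by the same amount. It could therefore not turn values already below 0, and says nothing on their shared direction. WRKY42, the 1 WRKY member below the filter, was at 0.20 ± 1.33 in a fit with no filter, and its arrays overlapped. With 12 arrays only WRKY6 passed, and without wild type replicate 2 WRKY22, WRKY47 and WRKY20 passed as well.

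WRKY22 (AT4G01250), which acts in the defence kinase cascade, had 19.4, 13.1 and 15 in ptpkis2, 21.7, 16.1 and 14 in sex4-3, 47.2, 33 and 30.5 in sex1-3, and 14.2, 173 and 25.1 in wild type. The sex1-3 arrays were above all others except wild type replicate 2, whose 173 was the highest value. The ptpkis2 minus sex1-3 difference was -1.21 ± 0.72 with 12 arrays (limma adjusted p = 0.38) and -1.21 ± 0.34 without wild type replicate 2 (adjusted p = 0.0164). The sex1-3 minus wild type value was -0.12 ± 0.72 with that array and 0.94 ± 0.38 without it, and neither value passed. With all 12 arrays it also turned above 0 under quantile normalization (0.033) and median centring (0.42), and with array weights it was called (1.11, adjusted p = 0.0495, up to 0.999 over all alternatives).

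WRKY47 (AT4G01720) had 58.3, 51.9 and 65.7 in ptpkis2, 54.2, 76.6 and 64.9 in sex4-3, 115, 70.6 and 126 in sex1-3, and 68.2, 144 and 120 in wild type. The ptpkis2 arrays lay below those of sex1-3 and also below those of wild type. Its difference from sex1-3 was -0.79 ± 0.31 (adjusted p = 0.155), and 0.0298 without wild type replicate 2. WRKY20 (AT4G26640) had 87.8, 109 and 95.7 in ptpkis2, 99.5, 95.8 and 115 in sex4-3, 132, 124 and 143 in sex1-3, and 116, 49.3 and 98.4 in wild type. Every sex1-3 array was above every other array, and its ptpkis2 minus sex1-3 value of -0.45 ± 0.15 passed without wild type replicate 2 (adjusted p = 0.0369).

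WRKY53 (AT4G23810), a regulator of leaf senescence, had 57.1, 42.7 and 40.2 in ptpkis2, 29.5, 49.3 and 59.7 in sex4-3, 90.2, 73.5 and 83.3 in sex1-3, and 37.5, 31.3 and 87.1 in wild type. The sex1-3 arrays lay above both other mutants but not above wild type replicate 3. Its ptpkis2 minus sex1-3 value was -0.83 ± 0.31 without wild type replicate 2, with an adjusted p of 0.0562, and it did not pass with all arrays. SAG101, the only tested gene of a list of leaf senescence genes, had a value of 0.45 in that comparison and did not pass.

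The bZIP members split between both directions in ptpkis2 against sex1-3, with 3 tested members above 0 and 4 below, and 0 of the 7 passed with limma and all 12 arrays. At an unadjusted p below 0.05, bZIP52 and bZIP19 counted, beside 22% of all probe sets. When wild type replicate 2 was left out, bZIP52 and BZIP61 were higher in ptpkis2 and BZIP53 and bZIP19 lower.

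bZIP19 (AT4G35040), which senses zinc and drives the genes of zinc uptake, had 219, 209 and 209 in ptpkis2, 195, 202 and 209 in sex4-3, 282, 293 and 289 in sex1-3, and 189, 284 and 224 in wild type. The 3 sex1-3 arrays lay above every ptpkis2 and sex4-3 array and above the wild type arrays except replicate 2. Without that array, the sex1-3 minus wild type difference was 0.49 ± 0.14, or 1.4-fold (limma adjusted p = 0.0403, 0.0122 to 0.631 over all alternatives). With all 12 arrays it was 0.33 ± 0.17 (adjusted p = 0.287). Its ptpkis2 minus sex1-3 value was -0.44 ± 0.12 and its sex4-3 minus sex1-3 value -0.51 ± 0.12 without wild type replicate 2, with adjusted p of 0.015 and 0.0131. ZIP6, the only tested gene of a zinc supply list, was at -0.03 in ptpkis2 against sex1-3 and did not pass.

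BZIP53 (AT3G62420), of the group of small bZIPs tied to low energy and amino acid metabolism, was the brightest bZIP member. It had 233, 305 and 279 in ptpkis2, 314, 271 and 336 in sex4-3, 386, 361 and 359 in sex1-3, and 323, 191 and 353 in wild type. All sex1-3 arrays exceeded all others, by little in the case of wild type replicate 3, and the ptpkis2 minus sex1-3 value of -0.45 ± 0.14 passed without wild type replicate 2 (adjusted p = 0.0256). AKINBETA1, a subunit of the energy-sensing kinase SnRK1 that acts through such bZIPs, was the only named gene of its list. It fell by 2.55 ± 0.14 in ptpkis2 relative to sex1-3. With 12 arrays it was lower in ptpkis2 (-1.12) and higher in sex1-3 (1.44) than in wild type. These differences were called with 12 arrays and without wild type replicate 2. Of all tested probe sets, 9.46%, 0.264% and 2.95% were called in these comparisons with 12 arrays.

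bZIP52 (AT1G06850) had 49.1, 35.6 and 43.3 in ptpkis2, 44.3, 32.1 and 30.1 in sex4-3, 21.5, 17.2 and 29.5 in sex1-3, and 38, 20.4 and 30.9 in wild type. The sex1-3 arrays lay below all arrays of the other mutants and below wild type replicates 1 and 3. Its ptpkis2 minus sex1-3 value was 0.93 ± 0.34 with 12 arrays (adjusted p = 0.122), and it passed without wild type replicate 2 (adjusted p = 0.0176). BZIP61 (AT3G58120) had 79.3, 123 and 99.5 in ptpkis2, 134, 109 and 82.7 in sex4-3, 62.1, 69.1 and 45.3 in sex1-3, and 136, 9.3 and 68.9 in wild type. The sex1-3 arrays lay below those of both other mutants, and wild type alone spanned 9.3 to 136. The differences of ptpkis2 (0.77 ± 0.27, adjusted p = 0.0433) and sex4-3 (0.88 ± 0.27, adjusted p = 0.0428) from sex1-3 passed without wild type replicate 2.

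BZIP17 (AT2G40950) and BZIP28 (AT3G10800), membrane-bound factors that are cut free when proteins misfold in the endoplasmic reticulum, and BZIP60 (AT1G42990), whose messenger RNA is spliced in that response, did not pass in any comparison with 12 arrays or without wild type replicate 2. Their ptpkis2 minus sex1-3 values were 0.47 ± 0.24, -0.05 ± 0.60 and -0.31 ± 0.22. BZIP28 had signals of 71.1 to 153 on 11 arrays and stood at 16.1 in wild type replicate 2. It was called higher in sex1-3 than in wild type in 1 alternative, without wild type replicate 3 (1.87, adjusted p = 0.0466, up to 0.642 over all alternatives). BZIP60 was called lower in ptpkis2 than in sex1-3 in 1 alternative, median centring without wild type replicate 2 (-0.55, adjusted p = 0.0439, up to 0.852 over all alternatives). Of 3 tested genes of a list for the same response, 0 passed with limma and 12 arrays. Without wild type replicate 2 the chaperone genes CRT1B (0.78) and ERDJ3B (0.81) were higher in ptpkis2 than in sex1-3. S1P, the protease that cleaves BZIP17, was lower (-0.62). In that fit 16.8% of the tested probe sets passed with a value above 0 and 12.3% with a value below 0. The list was drawn up after the data had been seen, so these calls describe the 3 genes and not the response.

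**Figure D2:**
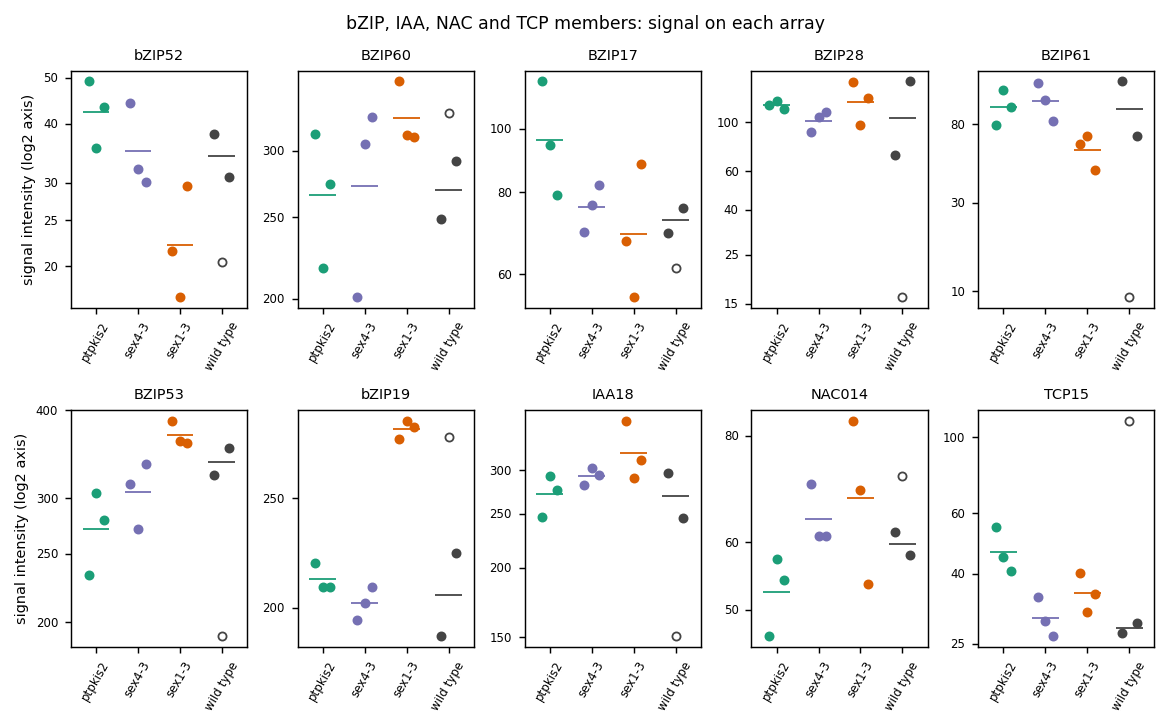
Signal intensity (log2 axis) of the 7 tested bZIP members, IAA18, NAC014 and TCP15 on each array, by genotype; the open circle is wild type replicate 2 and each bar is the geometric mean without it. The 3 sex1-3 arrays of bZIP19 lie at 282 to 293, above all ptpkis2 and sex4-3 arrays, and the open circle of BZIP61 lies at 9.3.

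IAA18 (AT1G51950) was the only Aux/IAA member bright enough to test. It had 247, 293 and 276 in ptpkis2, 283, 303 and 294 in sex4-3, 368, 290 and 313 in sex1-3, and 296, 151 and 246 in wild type. The mutants overlapped, and no difference passed with 12 arrays or without wild type replicate 2. NAC014 (AT1G33060) had 46.6, 57.4 and 54.2 in ptpkis2, 70.2, 61 and 61 in sex4-3, 83.4, 69.2 and 53.6 in sex1-3, and 61.7, 71.8 and 58 in wild type. Its ptpkis2 arrays lay below those of sex4-3 and wild type, and it did not pass (-0.28 ± 0.23 against each).

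TCP15 (AT1G69690), a class I TCP factor of cell proliferation, had 54.8, 44.6 and 40.9 in ptpkis2, 34.3, 29.1 and 26.3 in sex4-3, 40.1, 30.9 and 35 in sex1-3, and 27, 112 and 28.7 in wild type. The ptpkis2 arrays were above all others except wild type replicate 2. Without that array, ptpkis2 minus wild type was 0.74 ± 0.25 (adjusted p = 0.144) and ptpkis2 minus sex4-3 was 0.64 ± 0.22 (adjusted p = 0.198), and neither passed. The difference from sex4-3 was called in 1 of 26 alternatives, with array weights (0.64, adjusted p = 0.0435, up to 1 over all alternatives). The ptpkis2 minus wild type value was 0.07 ± 0.46 with all 12 arrays.

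Over the 19 tested members, ptpkis2 and sex1-3 differed in 10 without wild type replicate 2, where 29.1% of all tested probe sets were called. The 2 higher, beside 16.8% of all probe sets, were bZIP52 and BZIP61, and the 8 lower, beside 12.3%, were WRKY6, WRKY22, WRKY47, WRKY20, BZIP53, bZIP19, bHLH121 and bHLH104. Apart from WRKY6 and bHLH121, these members were called in 4 to 6 of 26 or 27 alternatives, and their adjusted p ranged from 0.00117 to 0.92. In a fit of the 6 arrays of these genotypes alone, which holds no wild type array, 11 members passed, with WRKY53 added, beside 31.2% of all probe sets. The signals of ptpkis2 and sex1-3 did not overlap in 13 members, 9 of them lower in ptpkis2, beside 45.3% of all tested probe sets (19.2% lower).

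The median difference of the members was -0.36, against 0.08 for all tested probe sets. The overall signal of the arrays also differed between these genotypes, with medians of 29.3 to 29.7 on the ptpkis2 arrays and 24 to 26 on the sex1-3 arrays. With every array centred on its median, the median over all probe sets moved to -0.16 and that of the members to -0.60. Under that scaling 0 members passed with 12 arrays, beside 3.44% of all probe sets. Without wild type replicate 2, 12 passed, all lower in ptpkis2, beside 21.9% of all probe sets called lower. WRKY53, BZIP60, IAA18 and NAC014 were among these 12, and bZIP52 and BZIP61 were not.

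**Figure D3:**
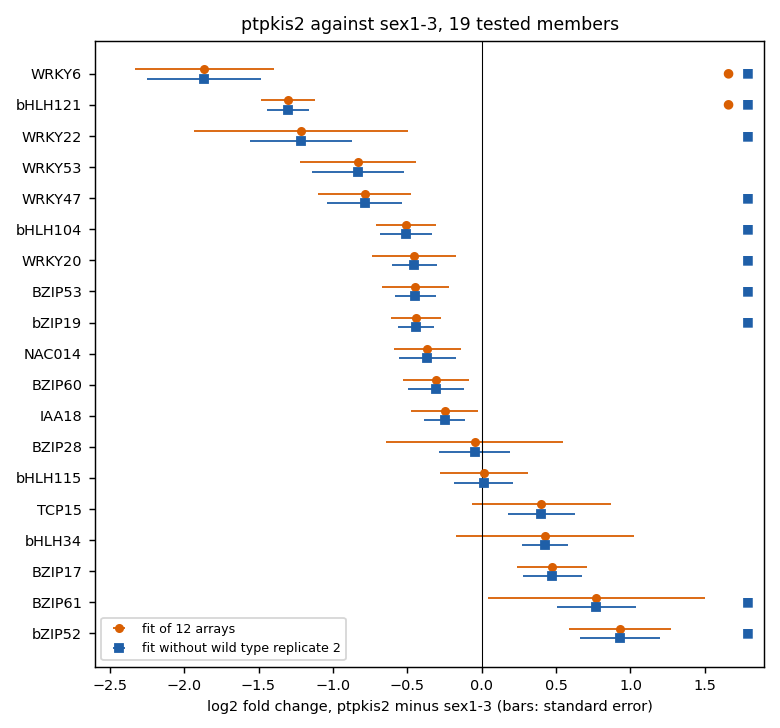
log2 fold change of ptpkis2 minus sex1-3 with its standard error for the 19 tested members, from the fit of 12 arrays (circles) and without wild type replicate 2 (squares); a mark at the right edge means an adjusted p below 0.05 in that fit. WRKY6 (-1.86) and bHLH121 (-1.30) passed in both, and the 5 tested WRKY members all lie below 0.

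Between sex4-3 and sex1-3, which shares the sex1-3 arrays with the comparison above, 0 of 19 members passed with limma and 12 arrays, beside 2.43% of all probe sets, and 4 had an unadjusted p below 0.05, beside 13.4%. Without wild type replicate 2, WRKY22 (-1.09 ± 0.34), bZIP19 (-0.51 ± 0.12) and bHLH121 (-0.60 ± 0.14) were lower and BZIP61 (0.88 ± 0.27) higher in sex4-3. These 4 stood beside 14% of all probe sets (5.58% lower and 8.39% higher). The 6 arrays of both genotypes alone gave 6 members, with WRKY6 and WRKY53 added, beside 10.7%. All 5 tested WRKY members had values below 0, from -0.37 to -1.20, and 4 of them did not overlap, while WRKY42 was at 0.41 with no filter and overlapped. Over all 19 members the signals of sex4-3 and sex1-3 did not overlap in 11, beside 31.3% of all probe sets.

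Between ptpkis2 and sex4-3, 0 members passed with limma and 12 arrays, beside 0.0659% of all probe sets, and bHLH121 alone had an unadjusted p below 0.05, beside 4.48%. bHLH121 was the only member to pass without wild type replicate 2, beside 1.66% (1.13% lower). The signals did not overlap in 5 members, beside 20.8% of all probe sets. In the fit of these 6 arrays alone 0 members passed, beside 1.5%.

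Against wild type, no member passed with limma and all 12 arrays. The counts were 0 of 19 in ptpkis2 (0.264% of all probe sets called), 0 in sex4-3 (0.00733%) and 0 in sex1-3 (2.95%). At an unadjusted p below 0.05 they were 2 in ptpkis2 (12.5% of all probe sets), 1 in sex4-3 (5.23%) and 4 in sex1-3 (19.9%), near the shares over all probe sets. Without wild type replicate 2, bHLH121 was lower in ptpkis2 (2.7% of all probe sets called, 1.87% lower), 0 members passed in sex4-3 (0.00733%, and 0 members beside 4.68% with an unadjusted p below 0.05), and bZIP19 was higher in sex1-3 (8.87%, 3.23% higher). These comparisons share the wild type arrays.

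The 95% intervals of sex4-3 minus wild type lay within a 2-fold change either way for 11 of 19 members with 12 arrays. The lowest bound was -2.79, in WRKY22, and the highest 2.86, in BZIP61. The same held for 17 of 19 members without wild type replicate 2, where the lowest bound was -1.10, in WRKY53, and the highest 0.96, in WRKY6.

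**Figure D4:**
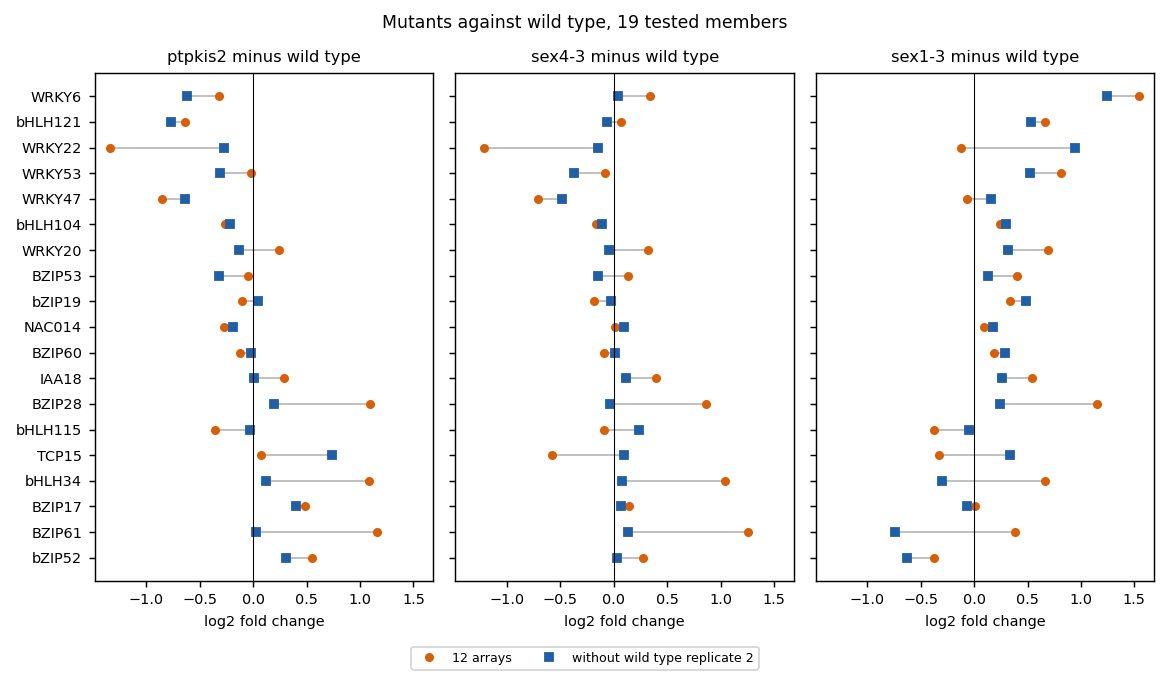
log2 fold change of each mutant minus wild type for the 19 tested members, with 12 arrays (circles) and without wild type replicate 2 (squares), joined by a line. Leaving out that array moved WRKY22 in sex1-3 to 0.94, against -0.12 with it, and BZIP61 to -0.74, against 0.39.

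The order of the 4 genotypes was uneven among the members. By geometric mean, with wild type replicate 2 left out, sex1-3 was the highest genotype in 13 of 19 members and ptpkis2 in 4, while sex4-3 was highest in 2 and wild type in 0. Over all tested probe sets, sex1-3 was highest in 30.2% and ptpkis2 in 35.4%. The lowest genotype was ptpkis2 in 9 members and sex1-3 in 5, against 25.8% and 40.4% of all probe sets. Neighbouring genotypes overlapped throughout this order in some members, such as WRKY47, and not in others, such as bHLH121. The order was not tested and describes means only.

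The 15 members below the filter were WRKY42, bZIP58, bZIP44, bZIP48, BZIP34, bZIP42, BZIP24, bZIP43, BHLH101, IAA34, IAA20, IAA31, IAA30, IAA29 and IAA33. On the 11 arrays other than wild type replicate 2 their signals lay between 0.305 and 22.8, and 9 of them had a median below 4.19, the 20th percentile of all signals. BHLH101, an iron response factor downstream of the bHLH members above, had 12.5, 1 and 1.79 in ptpkis2 and 1.92, 6.43 and 15.7 in sex1-3, which overlapped. Wild type replicate 2 was the highest array in 10 of the 15, up to 161 in IAA31.

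With no filter on signal, 0 of these 15 passed with limma and 12 arrays in any comparison, beside 4.79% of all probe sets in ptpkis2 against sex1-3. Without wild type replicate 2, the Aux/IAA members IAA30 and IAA31 were higher in ptpkis2 than in sex1-3, beside 9.04% of all probe sets. IAA30 had 4.85, 8.15 and 18.8 in ptpkis2 and 2.11, 0.685 and 1.76 in sex1-3, and IAA31 had 12.6, 3.23 and 12.8 in ptpkis2 and 0.664, 1.25 and 1.11 in sex1-3. The groups did not overlap in either gene, but the sex1-3 values lie below the 20th percentile. The 3.23 of IAA31 in ptpkis2 lies below it as well, so no size is given for the differences. IAA20, another Aux/IAA member, ran the other way without overlap and was not called. It had 1.47, 6.01 and 1.78 in ptpkis2 and 9.92, 7.15 and 6.43 in sex1-3.

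**Figure D5:**
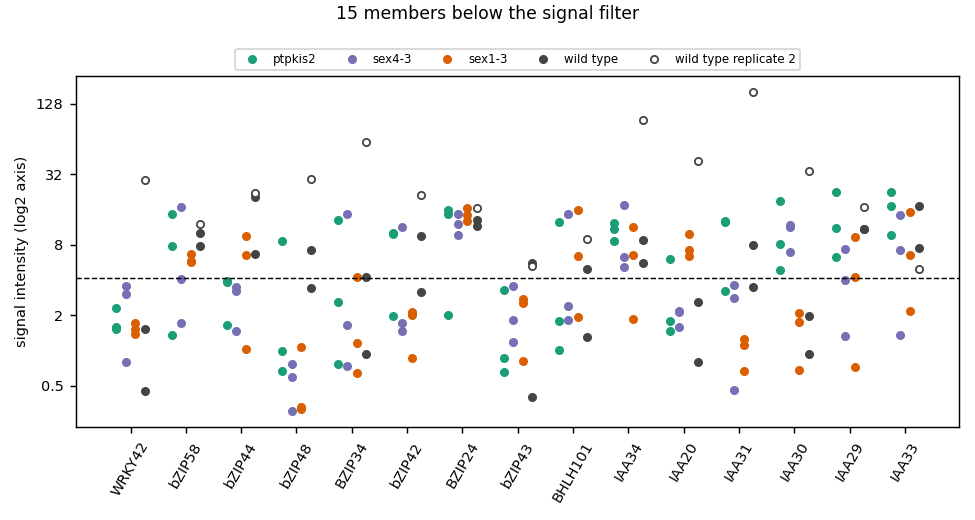
Signal intensity (log2 axis) of the 15 members below the filter on each array, coloured by genotype; open circles are wild type replicate 2 and the dashed line is the 20th percentile of all signals, 4.19. Most signals of the 11 other arrays scatter around the line within each genotype, up to 22.8.

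Genes that work with the members were described from lists of named genes. Of 2 tested auxin genes, GH3.5, which joins auxin to amino acids, fell in ptpkis2 relative to sex1-3 (-1.53 ± 0.44, adjusted p = 0.0492). Over all tested probe sets 4.18% were called lower in that comparison with 12 arrays. Of 2 tested ethylene genes 0 passed with 12 arrays. EIN3, the main ethylene transcription factor, was lower without wild type replicate 2 (-0.69 ± 0.13), beside 12.3% of all probe sets called lower.

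Among the iron genes, BHLH105 (ILR3), a close relative of bHLH104, was at -0.44 ± 0.15 in ptpkis2 against sex1-3. It passed without wild type replicate 2, beside 12.3% of all probe sets called lower. The repressor PYE (0.31) did not pass. Of 4 tested flavonoid genes, which MYB and bHLH factors control, CHIL (5.26 ± 0.72) and UGT78D1 (2.14 ± 0.52) were higher in ptpkis2 than in sex1-3, and 0 were lower. Of the 13647 tested probe sets, 721 were called higher in that comparison with 12 arrays, and 9.46% were called in either direction. The clock list had 1 named gene, GI, which was below the filter, and the list of 16 defence genes around the WRKY factors had 0 named genes. These lists are short, so their counts describe the genes named and not the pathways.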

How the data were processed

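RNA from leaves of 4 genotypes was measured on 12 ATH1 arrays. The submitters' processing notes name MAS5 and GCOS, without versions. Each value of the table the authors deposited is a signal intensity on a linear scale. Its trimmed mean was nearly equal on all arrays, as after scaling to a common target. Present and absent calls were not analysed here. Precision is limited by having 3 arrays per genotype.

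The intensities were converted to log2 without a pseudocount or another normalization. Left out were 64 control probe sets and the dimmest 40% of the rest by mean log2 signal. A linear model of all 12 arrays was fitted to the remaining 13647 of 22810 probe sets with limma 3.58.1 in R 4.3.3 (eBayes with a trend, 8 residual degrees of freedom) and gave 6 comparisons. Tests were two-sided, with Benjamini-Hochberg adjustment over all tested probe sets. The fit was tested on simulated data.

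Symbols came from the platform annotation and a RefSeq table used for names only, and each member had 1 probe set. Members and lists were chosen with earlier results of these data known, and the 4 lists for iron, zinc, misfolded proteins and senescence were added after the data had been seen. The rule for members named with values took every member called with 12 arrays or without wild type replicate 2, and in each family the brightest tested member and the one with the largest moderated F. The other tested members were added after their values were seen. Alternatives are given with the dependence on the processing. Promoter and protein motifs were not analysed here. The list of other transcription factor families is not reported here.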

Additional observations from a re-analysis of the deposited data

Results flagged for a closer look

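The effects of ptpkis2 and sex1-3 differed by a direct test of the difference in 2 of 19 tested members (10.5%). This was near the 9.46% of all tested probe sets called. WRKY6 was called in 19 of 26 alternatives and bHLH121 in 26 of 27. WRKY6 differed by -1.86 on the log2 scale (ptpkis2 minus sex1-3), with values of -0.32 in ptpkis2 and 1.54 in sex1-3 relative to wild type. bHLH121 differed by -1.30, with -0.64 in ptpkis2 and 0.66 in sex1-3. Neither value against wild type passed in limma with 12 arrays for either gene.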

How the results depend on the processing

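Shares in parentheses are of all probe sets tested. For ptpkis2 against sex1-3 (2 members), array weights gave 11 (33.9%), the 2 genotypes alone 11 (31.2%), quantile normalization 1 (6.59%), median centring 0 (3.44%) and leaving out the lowest 60% of signals 1 (14%), as WRKY6 was below that filter. Leaving out 1 array gave 1 to 10, the 10 without wild type replicate 2 (29.1%), and WRKY6 was lost without ptpkis2 replicate 2 or 3 or any sex1-3 array. For sex4-3 against sex1-3 (0), array weights gave 7 (20.7%) and the 2 genotypes alone 6 (10.7%). Leaving out 1 array gave 0 to 4, with 4 without wild type replicate 2 (14%). For sex1-3 against wild type (0), array weights gave 4 (14.8%) and leaving out 1 array 0 to 2, with 2 without wild type replicate 3 (5.9%). For ptpkis2 against wild type (0) these gave 1 (5.85%) and 0 to 1, with 1 without wild type replicate 2 (2.7%). For ptpkis2 against sex4-3 (0) they gave 2 (7.28%) and 0 to 1, with 1 without that array (1.66%). The count for sex4-3 against wild type stayed at 0. Combinations added after seeing the data left out wild type replicate 2 and used quantile normalization, median centring or a floor at the 20th percentile. In that order the counts were 7, 12 and 10 in ptpkis2 against sex1-3 (28.1%, 31.7% and 29.2%). They were 4, 7 and 5 in sex4-3 against sex1-3 (13.2%, 15.8% and 14.2%). In sex1-3 against wild type they were 1, 2 and 1 (8.24%, 10.2% and 9.1%). Each combination gave 1 in ptpkis2 against wild type (3.08%, 3.34% and 2.78%) and 1 in ptpkis2 against sex4-3 (1.88%, 2.41% and 1.68%). Under median centring bHLH121 was at -1.54 (adjusted p = 0.0546) and WRKY6 at -2.10 (0.0846); the cause was not tested. Median centring turned the split of all calls in ptpkis2 against sex1-3 without wild type replicate 2 to 1340 higher and 2992 lower, against 2286 and 1684. The replicate block gave 2 members in ptpkis2 against sex1-3 (8.27%). The labels do not say that the replicate numbers pair the arrays. Deviations from the genotype means correlated at -0.069 to 0.114 between same-numbered arrays and at -0.143 to 0.132 between the others. Such correlations cannot show that no pairing exists.

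Over all alternatives, 94 log2 values of the members named by the rule turned sign, 0 of them called with 12 arrays. In 2 of them the turned value was called, WRKY22 and BZIP61 in sex1-3 against wild type with array weights (adjusted p = 0.0495 and 0.0365, over alternatives from 0.0495 to 0.999 and from 0.0365 to 0.883). The cause was not tested. Quantile normalization turned WRKY6 (0.069) and NAC014 (0.025) in ptpkis2 against wild type, and WRKY22 (0.033), WRKY47 (0.062) and bZIP52 (0.16) in sex1-3 against wild type. Median centring turned WRKY22 (0.42), WRKY47 (0.47), bZIP52 (0.16) and TCP15 (0.21) in sex1-3 against wild type, BZIP53 (0.26), bZIP19 (0.20), bHLH104 (0.038) and NAC014 (0.027) in ptpkis2 against wild type, bZIP19 (0.22) and bHLH104 (0.24) in sex4-3 against wild type, and bZIP19 (-0.028) in ptpkis2 against sex4-3. Array weights turned WRKY22 (1.11), WRKY47 (0.44), BZIP61 (-1.003) and TCP15 (0.35) in sex1-3 against wild type, WRKY20 (-0.14), bZIP52 (-0.13), BZIP61 (-0.083), BZIP53 (-0.20), bZIP19 (0.035), bHLH121 (-0.11), bHLH104 (0.030) and TCP15 (0.059) in sex4-3 against wild type, and WRKY20 (-0.16), BZIP61 (-0.14), bZIP19 (0.097) and IAA18 (-0.034) in ptpkis2 against wild type. Quantile normalization without wild type replicate 2 turned WRKY22 (1.09), WRKY47 (0.22), BZIP61 (-0.64) and TCP15 (0.47) in sex1-3 against wild type, WRKY20 (-0.0018), BZIP53 (-0.13), bZIP19 (0.012), bHLH121 (-0.039) and TCP15 (0.12) in sex4-3 against wild type, and WRKY20 (-0.12) and bZIP19 (0.089) in ptpkis2 against wild type. Median centring without that array turned WRKY22 (1.098), WRKY47 (0.31), BZIP61 (-0.59) and TCP15 (0.49) in sex1-3 against wild type, WRKY20 (-0.031), BZIP53 (-0.13), bHLH121 (-0.048) and TCP15 (0.11) in sex4-3 against wild type, WRKY20 (-0.22), BZIP61 (-0.053) and IAA18 (-0.076) in ptpkis2 against wild type, and bZIP19 (-0.028) in ptpkis2 against sex4-3. The floor without that array turned WRKY22 (0.94), WRKY47 (0.15), BZIP61 (-0.74) and TCP15 (0.34) in sex1-3 against wild type, WRKY20 (-0.047), BZIP53 (-0.14), bHLH121 (-0.065) and TCP15 (0.096) in sex4-3 against wild type, and WRKY20 (-0.13) and bZIP19 (0.047) in ptpkis2 against wild type. With 1 array left out at a time, the values spanned 0 for WRKY6 (-0.76 to 0.078), WRKY20 (-0.13 to 0.48), BZIP53 (-0.32 to 0.12), bZIP19 (-0.25 to 0.047) and TCP15 (-0.29 to 0.74) in ptpkis2 against wild type, WRKY22 (-0.86 to 0.94), WRKY47 (-0.38 to 0.19), BZIP61 (-0.74 to 1.20), NAC014 (-0.062 to 0.26) and TCP15 (-0.69 to 0.34) in sex1-3 against wild type, WRKY22 (-0.28 to 0.052) and BZIP61 (-0.29 to 0.061) in ptpkis2 against sex4-3, WRKY20 (-0.047 to 0.57), BZIP53 (-0.14 to 0.30), bHLH121 (-0.065 to 0.19), NAC014 (-0.060 to 0.096) and TCP15 (-0.93 to 0.096) in sex4-3 against wild type, and NAC014 (-0.25 to 0.070) in sex4-3 against sex1-3.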
